A study of Mus musculus with 6 samples.

Results

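The glycerophosphodiester phosphodiesterases Gdpd1, Gdpd2, Gdpd3, Gdpd4 and Gdpd5 were followed in the spinal cord of Dhtkd1 null mice. Their probes were taken by gene name, which gave 6 of the 41174 probes on the array, 2 for Gdpd1 and 1 for each of the other genes. The family was chosen on the difference of Gdpd3 between the genotypes, so the differences of its members on that contrast are given as a description, with no test. The cords came from male C57BL/6 mice aged 8 weeks, 3 of them wild-type and 3 Dhtkd1 null (Dhtkd1-/-), and each RNA was hybridised to 1 single-colour Agilent array. Dhtkd1 encodes part of a mitochondrial enzyme complex of lysine breakdown. The labels do not say how the null allele was made, nor that each replicate is a separate animal, so the p-values below measure the spread between these samples, which may be technical.

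Enzymes of this family cut glycerophosphodiesters, the molecules in which glycerol phosphate is joined through a second ester to an alcohol such as choline. Gdpd1 (also called GDE4) and Gdpd3 (GDE7) lie inside the cell and act as lysophospholipases D: they remove the head group of a lysophospholipid and leave lysophosphatidic acid, a lipid that signals through its own receptors. Gdpd2 (GDE3) and Gdpd5 (GDE2) are membrane proteins that act at the cell surface and release proteins held there by a glycosylphosphatidylinositol (GPI) anchor. Gdpd5 is known in the spinal cord for its part in the differentiation of motor neurons, and Gdpd4 (GDE6) is known mainly from testis.

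The sequences of the probes for the pair of lysophospholipases D are shown because the contrast between these genes is what the data turn on. Each is 60 bases long, printed 5′ to 3′ as the scanner files give it, and both span more of the genome than their own length, as a probe across an exon junction does. The Gdpd3 probe lies on chromosome 7 (mm9, chr7:133914520-133914693, plus strand), and its 60 bases are spread over 174 bases of genome. The Gdpd1 probe lies on chromosome 11 (mm9, chr11:86848758-86849113, minus strand), over 356 bases. Capitals mark the bases of the Gdpd3 probe that lie in a run of at least 14 bases shared with another probe of the array.
Gdpd3: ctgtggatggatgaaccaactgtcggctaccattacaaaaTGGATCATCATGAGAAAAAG
Gdpd1: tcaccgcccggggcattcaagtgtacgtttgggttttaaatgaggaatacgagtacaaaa
The longest run that the Gdpd3 probe shares with any other probe, on either strand, was 14 bases, with the probes of Pdgfd and Gm13238. These differed between the genotypes by 0.01 and -0.37 log2 units, with overlapping groups. The Gdpd1 probe shared no run of 14 bases with another probe. Between the 6 Gdpd probes the longest shared runs were 4 to 8 bases.

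Signals are given as log2 of the processed intensity relative to the 75th percentile of the array, so 0 is the level of a bright probe, and levels are compared within a probe only. Gdpd3 was dim but above background in wild-type cords and much brighter in null cords. Its log2 signal was -4.12, -4.24 and -3.85 in wild-type replicates 1, 2 and 3. It was 0.19, -0.30 and -0.83 in null replicates 1, 2 and 3. Every null sample was above every wild-type sample, and the gap between the groups was wider than the spread within either. The wild-type mean was -4.07 ± 0.20 (SD, n = 3) and the null mean -0.31 ± 0.51 (SD, n = 3). The difference between them was 3.76 log2 units (SE 0.27), which is 13.5-fold.

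The intensities before scaling show the same separation. The processed intensity of the Gdpd3 spot was 58.0, 53.5 and 66.0 units in the wild-type samples and 1200, 798 and 580 units in the null samples. The mean brightness of the spot was 2.34 to 2.60 times its local background in wild-type and 12.7 to 25.3 times in null samples. The spot was well above background and not saturated on all 6 arrays, and on none was it marked as an outlier. Since the wild-type signal is so dim, the size of the fold depends on the background correction: with normexp and an offset of 50 units, which raises every dim value, the difference was 2.80, or 6.97-fold. In bulk tissue, more cells that express a gene and more RNA per cell cannot be told apart.

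Wild-type replicate 2 shared a slide with all 3 null samples, and the other wild-type samples were on a second slide. Within the shared slide the Gdpd3 difference was 3.93 (SE 0.44), or 15.2-fold, against a single wild-type sample. The second slide holds wild-type samples alone and gives no difference. Among the 33191 probes kept for the fit, the Gdpd3 difference was the second highest, after a probe of Scgb3a1 at 4.91, a secreted protein of airway epithelium that is named here after its value was seen. That rank is part of how the family was chosen.

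**Figure D1:**
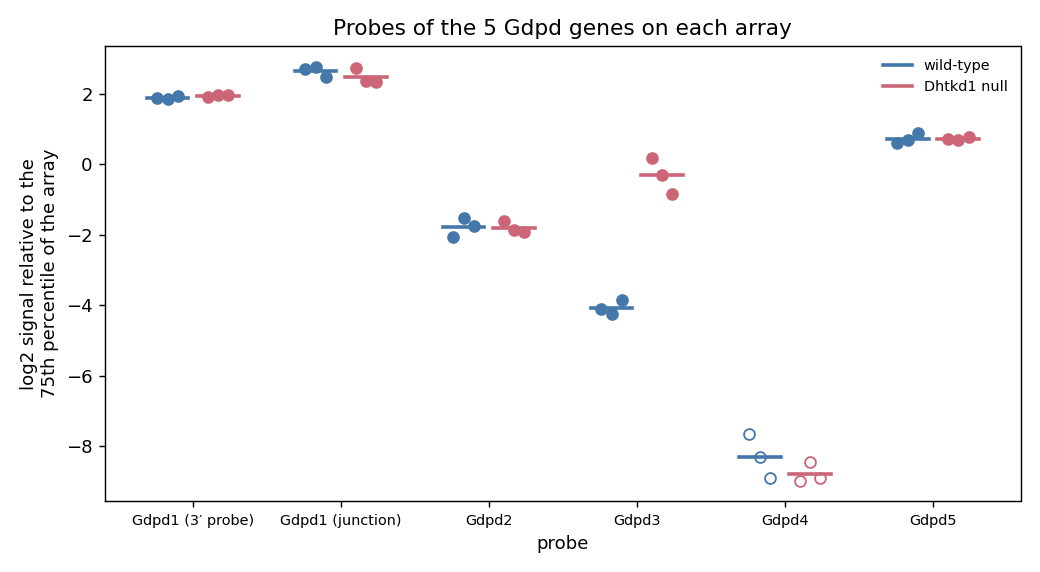
Log2 signal relative to the 75th percentile of the array (vertical axis) for the 6 probes of the 5 Gdpd genes, with 1 point per array, wild-type in blue and Dhtkd1 null in red, and a bar at the mean of each group of 3. Open points were not well above background. The groups are apart for Gdpd3 (-4.24 to -3.85 against -0.83 to 0.19) and overlap for the 5 other probes.

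Gdpd1, the relative of Gdpd3 that carries out the same kind of reaction, was bright in both genotypes and its groups overlapped at both probes. At the probe printed above, the wild-type samples were at 2.69, 2.77 and 2.47 and the null samples at 2.73, 2.35 and 2.34. The means were 2.64 ± 0.15 and 2.48 ± 0.22 (SD, n = 3 each), a log2 difference of -0.17 (SE 0.14). The other Gdpd1 probe (mm9, chr11:86847492-86847551, minus strand) lies further towards the 3′ end of the transcript. It was at 1.87, 1.86 and 1.94 in wild-type and at 1.90, 1.96 and 1.97 in null samples, and the difference was 0.06 log2 units (SE 0.07). The signs of the 2 probes were opposite, and the groups overlapped at both.

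The genotypes overlapped for the surface enzymes too. Gdpd5 (probe at mm9, chr7:106609102-106609161) was at 0.60, 0.68 and 0.90 in wild-type and at 0.73, 0.68 and 0.77 in null samples. Its means were 0.73 ± 0.15 and 0.73 ± 0.04 (SD, n = 3 each), and the log2 difference was 0.00 (SE 0.10). Gdpd2 (chrX:97933476-97933622) was at -2.05, -1.53 and -1.76 in wild-type and at -1.62, -1.87 and -1.93 in null samples. Its means were -1.78 ± 0.26 and -1.81 ± 0.16 (SD, n = 3 each), a log2 difference of -0.03 (SE 0.16), which was 0.10 without wild-type replicate 2 and -0.28 within the shared slide. Gdpd4 (chr7:105197473-105197532) was not well above background on any of the 6 arrays and was left out of the fit. Its spot was 0.986 to 1.09 times as bright as its local background, so it has no fold here.

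With limma, 0 of 33191 probes (0%) had an adjusted p under 0.05, the lowest adjusted p being 0.0922, and 2719 (8.19%) had an unadjusted p under 0.05. With limma's trend and robust moderation 7 probes passed. In the main fit the 5 Gdpd probes that were kept hold 0 calls. Nothing is read from calls on Gdpd probes in any setting, since the family was chosen on this contrast. The null samples were all above the wild-type samples for 9.49% of kept probes and all below them for 4.84%. Of the 5 kept Gdpd probes, 1 was above (Gdpd3) and 0 were below. Dhtkd1 itself was lower in every null sample at both of its probes, with log2 differences of -1.08 (SE 0.08) and -1.07 (SE 0.28), and whether these probes lie in the deleted part is not stated.

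The other 2 genes of the family differed by little. Gde1, a membrane enzyme that cuts glycerophosphoinositol and makes N-acylethanolamines, was at 2.30 to 2.44 in wild-type and 2.19 to 2.38 in null samples (log2 difference -0.09, SE 0.09, adjusted p 0.787 by limma). Gpcpd1 (GDE5), which splits glycerophosphocholine, differed by 0.17 (SE 0.13, adjusted p 0.740) at its brightest probe and by -0.16 to -0.10 at its 3 other probes. Its groups overlapped at 3 of the 4 probes, and at the one that differed by -0.16 all null samples (1.31, 1.25 and 1.11) were below the wild-type samples (1.43, 1.36 and 1.37), with an adjusted p of 0.644.

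To ask whether the Gdpd3 difference is part of a local change, the probes within 100 kb on either side were read. There were 24 other probes, and 22 of them, of 16 genes, were kept. By limma 0 of the 22 passed, with adjusted p of 0.558 to 0.991 and with 2 (both of Coro1a) at an unadjusted p under 0.05, and their median log2 difference was 0.04, against 0.03 over all kept probes. The null samples were all above the wild-type samples for 4 of the 22 (18.2%, against 9.49% of kept probes) and all below for 3 (13.6%, against 4.84%). Both shares were higher than those of all kept probes, and this excess was not tested. In each count 2 are a pair of probes of 1 gene, and the 22 probes hold other such pairs. With 500 kb on either side, 0 of 75 probes passed. Since 0 of all 33191 kept probes passed, these counts of 0 were fixed by that result and nothing is read from them.

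The genes next to Gdpd3 differed by little. Mapk3, the kinase ERK1, lies 5.5 kb away and differed by -0.20 (SE 0.08) and -0.19 (SE 0.08), both with an adjusted p of 0.616, at 2 probes whose positions overlap. The first was at 2.99, 3.19 and 3.14 in wild-type and 2.93, 2.85 and 2.95 in null samples, so the groups were apart by a small margin. On the other side Ypel3 differed by 0.12, Tbx6, a T-box transcription factor, by -0.04, Ppp4c, a protein phosphatase subunit, by 0.01 and 0.02, and Aldoa, the glycolytic aldolase, by 0.09 and 0.08. Of the probes further out, Sgf29 differed by 0.00, Bola2 by -0.07, an unnamed transcript by 0.14, Tlcd3b by -0.08, Ino80e by 0.03 and 0.07, Doc2a by 0.06, Hirip3 by 0.08 and Taok2, a protein kinase, by 0.13. A pair of probes for unnamed or clone-named transcripts were well above background on no array.

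Of the 22 probes, 4 differed by more than 0.2 log2 units, against 29.4% of all kept probes, and this was not tested either. Both probes of Coro1a, an actin-binding protein of leukocytes 70.1 and 71.0 kb away, were higher in null samples, by 0.29 (SE 0.09) and 0.33 (SE 0.11). Sult1a1, a sulfotransferase 97.9 kb away, differed by 0.59 (SE 0.44), with overlapping groups. Slx1b, a subunit of a structure-specific nuclease, had 1 probe 81.4 kb away that differed by -2.41 (SE 1.21, adjusted p 0.644) and another 79.4 kb away that differed by -0.15 (SE 0.09). The first was at 1.07, 0.94 and 0.95 in wild-type samples and at -4.38, 0.10 and 0.02 in null replicates 1, 2 and 3. All 3 null samples were therefore below all wild-type samples, while the size of the mean difference rests largely on null replicate 1. The second probe gave -1.64, -1.48 and -1.58 on the null arrays, and its groups overlapped. Null replicate 1 was also the sample with the most Gdpd3 signal, which is a match on 1 array, and a link between the genes was not tested.

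**Figure D2:**
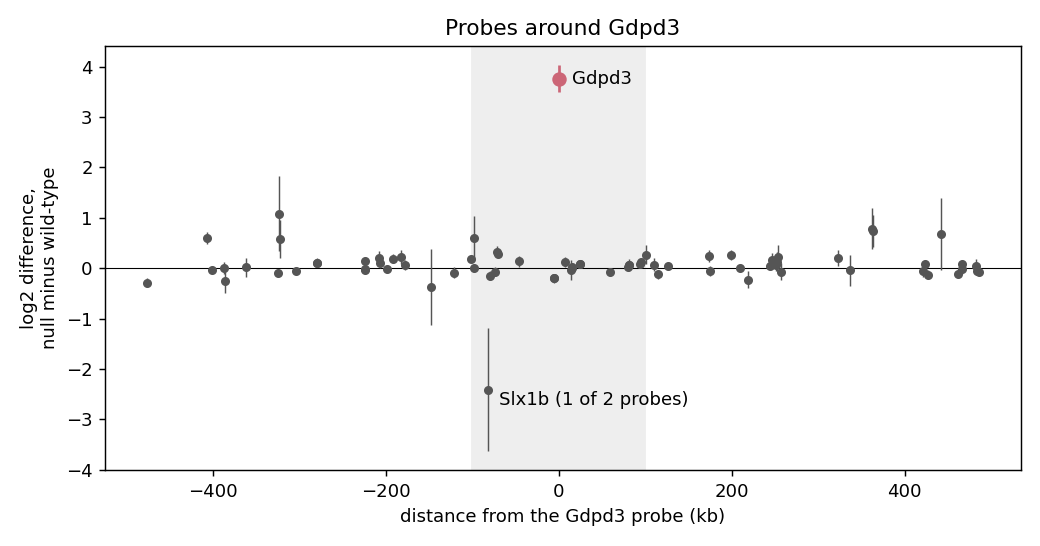
Log2 difference, null minus wild-type (vertical axis, with the moderated SE as bars), of each kept probe against its distance in kb from the Gdpd3 probe (horizontal axis), 500 kb to each side, with the 100 kb window shaded. Gdpd3 stands at 3.76, 1 of the 2 Slx1b probes at -2.41, and the other probes of the shaded window lie between -0.20 and 0.59.

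Genes of the pathways around these enzymes were taken from 10 lists, with 1 probe per gene. Of 87 genes tested, 0 passed by limma, from which nothing is read, since 0 of all kept probes passed. In null samples 36 were higher and 51 lower, and the median log2 difference was -0.04, against 0.02 over 21437 genes. An unadjusted p under 0.05 was seen for 6 of the 87 (6.90%), against 8.76% of all genes. The medians of the lists ran from -0.15 to 0.13.

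Other enzymes that act on lysophospholipids or phospholipids by related reactions were 4 higher and 6 lower of 10 tested. Liph, a phospholipase A1 that makes lysophosphatidic acid, differed by 0.58 (SE 0.23, adjusted p 0.600 by limma) and Pld2, a phospholipase D, by -0.22 (SE 0.09, adjusted p 0.604). Of 7 lipid receptors, among them those for lysophosphatidic acid, 4 were higher and 3 lower. Lpar4 was at -1.59, -2.02 and -1.79 in wild-type and -2.10, -2.12 and -2.15 in null samples (log2 difference -0.33, SE 0.12, adjusted p 0.592), and Lpar3 differed by 0.78 (SE 0.51), most of it from null replicate 3 at -3.12. Enzymes that remove or acylate lysophosphatidic acid were 4 higher and 6 lower of 10, with Agpat1 at 0.16 and Plpp1, a lipid phosphatase, at 0.12. The other kept probes of Plpp1 differed by -0.09 and -0.02, with overlapping groups, and that of Agpat1 by 0.13.

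Enzymes that hydrolyse or acylate lysophospholipids held the lowest p of these lists, with 5 higher and 12 lower of 17 tested. Mboat1, an acyltransferase that turns lysophospholipids back into phospholipids, was at 1.78, 1.88 and 1.64 in wild-type and at 1.22, 0.79 and 0.94 in null samples. All its null samples were below the wild-type samples, and the log2 difference was -0.78 (SE 0.13, adjusted p 0.349 by limma). Pnpla7, a lysophospholipase that releases glycerophosphocholine, was at -0.62, -0.51 and -0.33 in wild-type and at -0.18, -0.05 and 0.01 in null samples (log2 difference 0.41, SE 0.10, adjusted p 0.511). Neither passed.

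In the remaining lists differences were smaller or overlapped. Choline and phosphatidylcholine synthesis had 6 higher and 8 lower of 14 genes, with Pcyt2, of the phosphatidylethanolamine branch, at -0.18 and Chdh, a choline dehydrogenase, at 0.15. Genes of glycerol 3-phosphate were 5 higher and 4 lower of 9, with the acyltransferases Gpat3 at 0.16 and Gpat2 at 0.40. Genes of N-acylethanolamines were 3 higher and 4 lower of 7, with the receptor Cnr1 at 0.30 and the hydrolase Naaa at 0.13. Of 10 surface proteins and proteases tied to Gdpd5 and Gdpd2, such as Reck and the glypicans, 4 were higher and 6 lower, with Adam10 at 0.33 and Gpc5 at -0.23. All 6 genes of motor neurons, the cells in which Gdpd5 is best known, were lower at their brightest probe, by -0.36 to -0.02. Of all genes 44.1% were lower, and 0 of the 6 passed. The groups overlapped for each of the 6, and the other probe of Chat differed by 0.15 (SE 0.32). Mnx1 was at -0.36 (adjusted p 0.711) and Slc5a7, the choline transporter, at -0.20, both with overlapping groups.

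**Figure D3:**
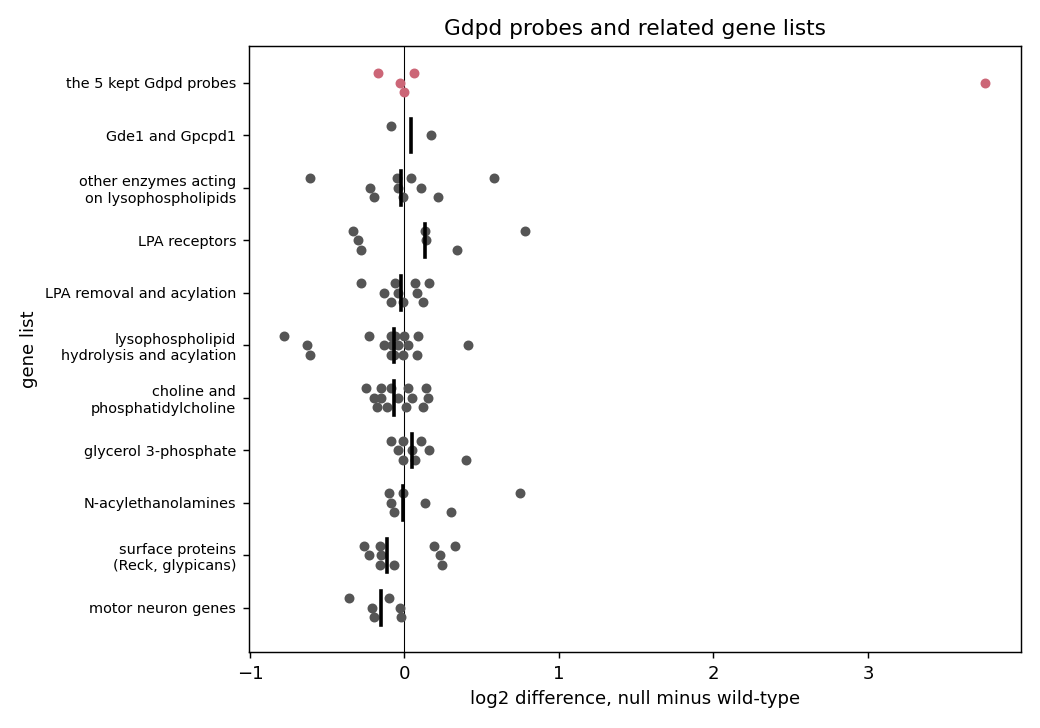
Log2 difference, null minus wild-type (horizontal axis), of the 5 kept Gdpd probes in red and of every tested gene in 10 related lists in grey, with a black bar at the median of each list. Gdpd3 at 3.76 is the only point beyond 1, and the listed genes lie between -0.78 and 0.78. LPA is lysophosphatidic acid.

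The genes whose signal over the 6 arrays was most like that of Gdpd3 were sought among 2171 genes that varied by at least 1 log2 unit. The highest Pearson correlations over the 6 arrays were those of Ffar2 (0.987), which senses short-chain fatty acids, Cyp4f15 (0.977), a fatty acid hydroxylase, Hif3a (0.970), a subunit of a hypoxia-inducible factor, Stfa3 (0.968), a cysteine protease inhibitor, Zfand4 (0.967) and Tex12 (0.967), a protein of meiotic chromosomes. These are descriptions, since with 2 genotypes on 6 arrays any gene that sets the groups apart ranks high. All 6 genes were higher in every null than in every wild-type sample, by 0.82 (Zfand4) to 1.64 (Tex12) log2 units. In wild-type cords Tex12 was well above background on a single array, so its size is less certain.

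**Figure D4:**
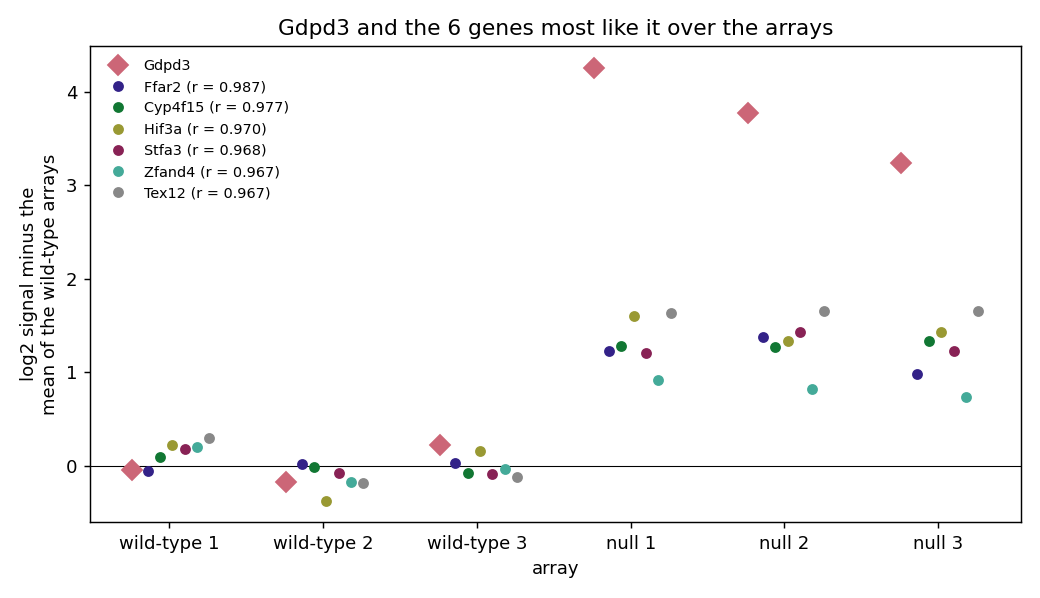
Log2 signal minus the mean of the 3 wild-type samples (vertical axis) on each of the 6 arrays (horizontal axis), for Gdpd3 (diamonds) and the 6 genes with the highest Pearson correlation with it. Gdpd3 has the largest difference between the genotype means (3.76), and the means of the other genes differ by 0.82 to 1.64.

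Markers of the cord were present on every array: all 5 neuron, 4 astrocyte, 5 oligodendrocyte and 5 microglia markers and 5 Hox genes of cord position were well above background on all 6. The 75th percentile of the processed intensity was 950 to 1055 units across the arrays. For 14 of 15 marker lists the wild-type and null array means overlapped. The exception was a list of 4 genes of stomach and gut, tissues outside the cord, with means of -0.30 to -0.12 in wild-type and 0.04 to 0.45 in null samples relative to each gene's mean. Of its genes Fabp2 differed by 0.42, Muc5ac by 0.30 and Vil1 by 0.56, and Gkn1 was well above background on no array. The neutrophil list overlapped, at -0.03, -0.70 and -1.24 in wild-type and 0.82, 1.52 and -0.37 in null replicates 1, 2 and 3. All 6 of its genes had a higher mean in null samples, by 0.73 (Camp) to 2.31 (Lcn2). Only Lcn2 was higher in every null sample than in every wild-type sample. The null samples were at 0.55, 0.26 and -0.04 for the red blood cell list, at -0.63, -0.01 and 1.16 for the epithelial list and at -0.24, 2.01 and -0.56 for the adipocyte list, and each of these lists overlapped with wild-type. Other lists also varied widely between arrays. The Schwann cell list ran from -0.75 to 2.09 in wild-type and -1.53 to 0.17 in null samples. The meningeal fibroblast list ran from -0.45 to 1.49 and -1.83 to 0.65. The Hox genes of cord position ran from -0.82 to 0.41 in wild-type and -0.14 to 0.42 in null samples. Hoxd10 was at -0.43, -3.63 and -5.59 in wild-type and -1.81, -1.21 and -3.66 in null samples. Skeletal muscle ran from -1.79 to 1.00 in wild-type samples, and the sensory ganglion list stood at 2.49 in null replicate 3. The part of any of these cells, or of cord position, in the Gdpd3 result was not tested.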

How the data were processed

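The deposited scanner files give the intensity of each spot, background-subtracted and detrended within the array by Agilent Feature Extraction 10.7.3.1 (array design 014868, positions on mm9), per the file headers. The deposited value table is in log2 units, and the authors' method for it is not given in the sources used here. Its columns share their quantiles (median 7.22) and follow each array's log2 intensity with r of at least 0.9997. It was an alternative only.

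Intensities were log2 transformed and scaled to the 75th percentile of non-control spots, dropping outlier spots (58 to 89 on each array) and averaging the repeats of a probe. Probes well above background on at least 3 of 6 arrays were kept (33191 of 41174). Every kept probe was fitted with limma 3.58.1 in R 4.3.3 (lmFit and eBayes, 2-sided, no covariate, Benjamini-Hochberg adjustment over all kept probes), after the fit was checked on simulated data. SE is the moderated standard error. Lists use the brightest kept probe of each gene, in the same fit. Gene symbols were updated through GRCm38.p6, which named 27761 probes by accession. The number of arrays limits the precision, and so does a signal close to background.

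Named are all members, all genes within 100 kb, the 2 genes of smallest p in each list, and the 6 genes most like Gdpd3 without clone-like names. The members and lists were chosen with earlier results of these data known. Replicate numbers were not used to pair the samples in the main fit. Deviations of same-numbered samples from their group means correlated at -0.0245, -0.089 and 0.300. Those of differently numbered samples correlated at -0.200 to 0.239. Deviations from a mean of 3 samples depend on each other, so these values cannot settle whether the samples were paired.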

Additional observations from a re-analysis of the deposited data

How the results depend on the processing

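The Gdpd3 difference was recomputed in 19 alternatives and was positive in each, from 2.80 to 4.01. It moved beyond the SD between samples with normexp background correction (2.80), whose offset raises dim values. With the replicate block it was 3.76 (SE 0.28). Gdpd1, Gdpd2 and Gdpd5 stayed within -0.30 to 0.10 in every alternative run, and the 3′ Gdpd1 probe went from 0.06 to 0.00 with median centring. The number of probes past an adjusted p under 0.05 was 0 in the main setting and 1 with normexp (Cyp4f15). It was 7 with trend and robust moderation (6 higher and 1 lower). Leaving out 1 array at a time gave 0 to 4 probes, with 4 lower without null replicate 2 and 1 higher without null replicate 1, none of them a Gdpd probe. No neighbour within 100 kb and no listed gene passed in any alternative, nor with windows of 50 or 500 kb. As at most 7 probes of the whole array passed in any alternative, nothing is read from this. Depth limits the size of the Gdpd3 fold, since its wild-type signal was 2.34 to 2.60 times the local background.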
